A study of Xenopus tropicalis with 30 samples.

Results

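The loci described here are stretches of the *Xenopus tropicalis* genome (the western clawed frog) in which start sites of transcription lay 5000 bases or more apart and were followed by a poly(A) site. Start sites and poly(A) sites were taken along each strand in the direction of transcription, with gaps of at most 20000 bases between neighbours. A locus was closed where a start followed a poly(A) site, and it had to hold both kinds. The rule kept 4221 of 28539 loci, which was 14.8% of all loci and 30.4% of the 13880 loci with more than 1 start. The other 9659 loci with several starts served for comparison. The rule used positions only and no counts of any library, although a site had to be listed by the authors to enter.

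Many vertebrate genes have alternative promoters, which begin the transcript at different first exons and can change its 5′ untranslated region, its coding sequence or the tissue in which it is made. Start sites can be read genome-wide from the 5′ ends of RNA. CAGE selects for the cap that marks the 5′ end of an RNA polymerase II transcript, so a site inside a gene that is seen by CAGE and by another 5′-end method has support from both. The cleavage and poly(A) site closes the transcript at its 3′ end.

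Whole bodies of adult frogs were profiled. WTSS-seq, which reads 5′ ends, was made from 6 males and 6 females, and WTTS-seq, which reads 3′ ends, from the same 12 animals per the series design. A pool of 3 adult females was prepared once as CAGE and in 2 repeats as WTSS-seq, and the labels do not say whether these 3 are among the 6 individual females. No treatment or genotype is given, and the sexes differ in every tissue that differs between male and female bodies, the gonads included. In whole bodies, fewer cells of a type and less RNA per cell cannot be told apart. The tables name no genes, so the body was not checked against tissue markers and it was not tested whether both ends of a locus belong to 1 gene.

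Totals ranged over 1866839 to 6643184 counts per animal in WTSS-seq and 2304469 to 6624765 in WTTS-seq, against 2641136 in CAGE and 1935959 and 9227896 in the pool WTSS-seq repeats. Female 3 stood apart in WTSS-seq, with 46.5% of its counts in 1 site, against at most 11.3% in another female. Among the male WTSS-seq columns, 1 is headed Male3 and 2 are headed Male4, while the labels list males 2, 3 and 4. The 2 columns headed Male4 were used as separate animals because the labels list 6 males. Their counts differed beyond counting noise (chi-square per degree of freedom 127), but the 2 WTSS-seq repeats of the female pool did so too (43.6), so the counts do not show that the columns are separate animals.

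A typical locus of the set held 4 starts (quartiles 3 and 5) and 2 poly(A) sites. Of the 4221 loci, 910 held 2 starts and 1527 held 5 or more. The distance from the first to the last start had a median of 10211 bases (quartiles 7125 and 15254) and reached 57114, and it was 20000 bases or more in 449 loci. Plus and minus strands held 2179 and 2042 loci. The share of the loci on a chromosome that belonged to the set ranged over 15.5% on chromosome 5 to 18.8% on chromosome 10. At the limit of the rule, the locus just inside lay on chromosome 3 with its first start at 93856701 and a distance of 5000 bases, and the one just outside lay on chromosome 2 with its first start at 91297128 and a distance of 4999 bases. The set took 18249 of 69857 start sites, 26.9% ± 2.46 of the start counts in males and 20.8% ± 6.38 in females (SD, n = 6 each). Female 3, at 8.04%, set much of the female spread. A single locus, on chromosome 5 with its first start at 61406537, weighed heavily in males. Its upstream side had 2952446 counts in males and 103950 in females, and in male 1 it took 605470 of 4655520 counts. The shares without this locus are not given, so the higher male share is not read as a trait of the set. CAGE had 21.8% of its counts in the set, and the pool WTSS-seq repeats had a mean of 25.5%.

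Each locus was divided at the widest gap between neighbouring starts, whose median was 7491 bases (range 1037 to 19982). In the loci of the set tested for a sex difference in start use below, the median gap was 6541 bases (quartiles 4331 and 10645). Far-apart starts here means the first and last start of a locus. The upstream and downstream sides can lie closer together than these starts. Counts before the gap form the upstream side and counts after it the downstream side. The upstream share is the upstream count as a percentage of both sides. The upstream side held a median of 1 start and the downstream side a median of 2.

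The downstream starts often lay close to the 3′ end. The strongest downstream start was within 1000 bases before the first poly(A) site in 1788 of the 4221 loci (42.4%), against 5703 of the 9659 other loci with several starts (59.0%). The median distance from the strongest start to the first poly(A) site was 12295 bases on the upstream side and 1630 bases on the downstream side. The clusters of reads that make up the strongest starts had similar median widths, 143 bases upstream and 136 bases downstream. The label of alternative starts therefore covers pairs of distant starts as well as 5′ ends counted next to the end of the transcript, and which of these are promoters was not tested.

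The first comparison asked whether males and females used the upstream and downstream starts of the same locus in different proportions. Many loci with enough counts did, in nearly equal numbers in each direction. A locus was tested where the count on each side averaged 10 or more in the 12 animals. Of 1125 such loci, 272 (24.2%) differed by sex in edgeR's diffSpliceDGE test at an adjusted p under 0.05. The share over all 2707 loci tested was 23.1%, and it was 22.3% (352 of 1582) in the other loci, so the far-apart starts stood near the background. Upstream use was higher in males in 133 loci (11.8%, background 10.6%) and lower in males in 139 loci (12.4%, background 12.4%). Of the 3096 loci not tested, 1231 passed the minimum on the upstream side only, 743 on the downstream side only, and 1122 on neither.

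The median size of the shift in the 272 loci was 2.77 on the log2 scale of the upstream to downstream ratio. Over all tested loci of the set it was 0.926. Passing a test favours larger shifts, and the other loci likewise had 2.68 where they passed, against 0.864 over all tested. In the 133 loci with higher upstream use in males, the median upstream share was 82.8% in males and 44.2% in females. In the 139 with lower use, it was 36.8% in males and 81.0% in females. In 91 of the 272 loci the main side itself differed between the sexes, and no background share is given for this. Of these, 44 had most counts upstream in males and downstream in females, and 47 the reverse. The shares of the 6 males and 6 females did not overlap in 136 tested loci (12.1%, background 13.2%), of which 125 passed the test.

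**Figure D1:**
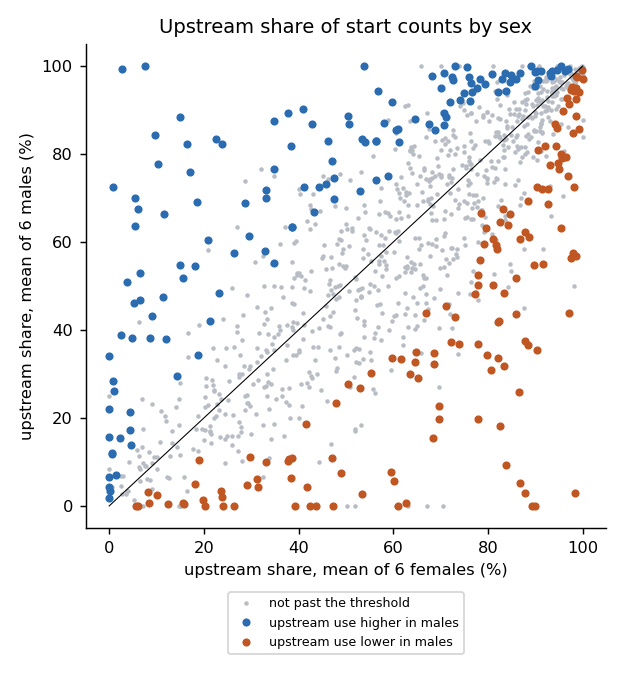
Mean upstream share in 6 males (vertical axis, %) against 6 females (horizontal axis, %) for the tested loci with far-apart starts, 1 point per locus, with loci without a male count left out. Blue points are the 133 loci with higher upstream use in males, orange points the 139 with lower use, grey points did not pass the edgeR test, and both colours reach the corners where 1 sex used almost only 1 side.

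Short and long loci differed by sex in broadly similar shares. The test passed in 118 of 529 loci (22.3%) with a distance of 5000 to under 10000 bases, in 106 of 429 (24.7%) up to under 20000 bases, and in 48 of 167 (28.7%) from 20000 bases on. By chromosome the share ranged over 12.7% (9 of 71) on chromosome 9 to 39.3% (22 of 56) on chromosome 10. Loci whose strongest downstream start lay within 1000 bases of the first poly(A) site passed in 105 of 486 cases, 41 with higher and 64 with lower upstream use in males. The remaining loci passed in 167 of 639 cases, 92 with higher and 75 with lower use. These splits were not tested against each other. No share over all tested loci of the same chromosome or poly(A) class is given, so they are not read as traits of the set.

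The mean upstream share over the 1125 tested loci hardly separated the sexes. Loci without a count in a library were left out of its mean, and 12 of the 1125 had no male start count. It was 58.5% ± 3.35 in males and 59.4% ± 5.52 in females (SD, n = 6 each), with ranges of 52.6% to 62.8% and 48.3% to 62.9%. Without female 3, which had the lowest value, the females averaged 61.6% ± 1.14 (SD, n = 5). Leaving out female 3 also raised the number of loci that passed to 310, with 127 higher and 183 lower in males. Within a locus the share varied between animals of a sex with a median SD of 10.5 points in males and 12.0 points in females.

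Chromosome 4 carried the largest rise in males among loci with non-overlapping shares and a mean of 100 or more counts per animal. Its 2 starts, at 111354287 and 111359424 on the plus strand, lay 5137 bases apart, before 5 poly(A) sites between 111370988 and 111384181. The upstream share was 41.7% in the lowest male, 75.5% at the median and 89.1% in the highest male, against 0.122%, 0.957% and 1.88% in females. No male came near any female. The shift was 8.91 ± 0.75 (SE) on the log2 scale in edgeR, with an adjusted p of 1.78e-09. Both sides moved. The upstream start had a median of 9.84 CPM (counts per 1000000, TMM scale) in males and 2.62 CPM in females, and the downstream start had 3.84 CPM in males and 343 CPM in females. The log2 level changes were 2.27 ± 0.48 upstream and -6.64 ± 0.58 downstream. With 251 counts in males and 59 in females, the upstream start reached the minimum mean of 10 counts through males. The poly(A) total of the locus went with the downstream start: its median was 11.1 CPM in males and 88.5 CPM in females, a log2 change of -3.14 ± 0.40 with an edgeR adjusted p of 2.53e-05.

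A pair of starts on chromosome 5 behaved alike, at 108272828 and 108278109 on the plus strand, 5281 bases apart, with the downstream one 396 bases before the first poly(A) site. The upstream share ranged over 62.5% to 92.9% in males with a median of 85.3%, and over 9.60% to 24% in females with a median of 15.5%. The shift was 4.97 ± 0.63 with an edgeR adjusted p of 8.15e-07. The upstream start was higher in males by 1.89 ± 0.39 on the log2 scale and the downstream start fell by 3.08.

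On chromosome 4 a second locus, minus strand, held 7 starts between 113345067 and 113373572, with 1 upstream and 6 downstream of the gap. Its upstream share was 57.1%, 65.9% and 76.0% (lowest, median, highest) in males and 7.55%, 10.4% and 18.4% in females. The shift was 3.88 ± 0.47 with an edgeR adjusted p of 4.17e-07. Dividing the locus at the midpoint instead of the widest gap ended the call (log2 shift 0.70, edgeR adjusted p = 0.289). No poly(A) count was seen in males, against 176 over the 6 females.

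Chromosome 2 held a locus of 10 starts between 48788603 and 48801972 on the plus strand, 7 before and 3 after the gap. Males had an upstream share of 80.1%, 92.6% and 93.4% (lowest, median, highest), and females 15%, 38.7% and 50%. The upstream side was higher in males by 2.81 ± 0.29 on the log2 scale while the downstream side, whose strongest start lay 205 bases before the first poly(A) site, fell by 1.05. The shift of 3.86 ± 0.45 had an edgeR adjusted p of 2.31e-07.

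At the other 2 loci with the largest rises the downstream side alone passed the test of its level. On chromosome 8, minus strand, 5 starts lay between 98714011 and 98742815. The first start had a median of 70.1 CPM in males and 89.1 CPM in females (edgeR adjusted p = 0.658), whereas the downstream starts had 10.7 CPM in males and 104 CPM in females. The upstream share was 76.2%, 87.0% and 94.3% (lowest, median, highest) in males and 31.8%, 43.5% and 52.5% in females. On chromosome 4, minus strand, the starts at 124239289 and 124230501 gave shares of 75%, 80.9% and 93.2% in males and 22.0%, 39.4% and 47.4% in females. There the downstream start was lower in males by a log2 change of -3.62 ± 0.37, and the upstream change of -0.68 ± 0.34 did not pass (edgeR adjusted p = 0.0865).

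**Figure D2:**
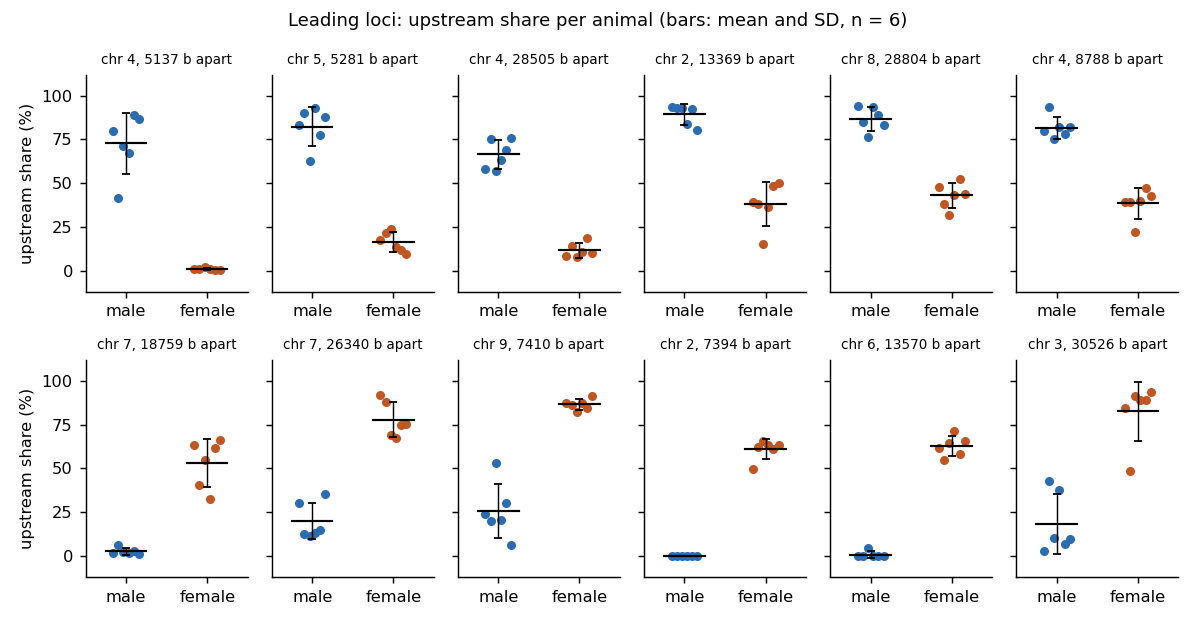
Upstream share (%) per animal at the 12 loci with the largest sex differences, males in blue left of females in orange, with the mean and SD of 6 animals. The upper row holds the 6 loci with higher and the lower row the 6 with lower upstream use in males, and no male overlaps a female in any panel because the loci were chosen for that.

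Among the falls, 2 loci had an upstream side that was nearly silent in males. On chromosome 2, plus strand, the start at 49237433 had 0 of 106 male counts, which allows a share of up to 2.83%, while 49244827 was the last of 2 downstream starts. In females it took 49.5%, 62.7% and 65.6% of the counts (lowest, median, highest). All 677 upstream counts of the 12 animals came from females, and the use differed with an edgeR adjusted p of 8.09e-07. No fold is given, since no male count was seen. On chromosome 6, plus strand, a locus of 10 starts between 45661592 and 45675162 had 3 upstream counts in males, all in the first column headed Male4, against 6035 in females. Its downstream side did not pass the test of its level, with medians of 81.9 CPM in males and 129 CPM in females (log2 change -0.52 ± 0.36, edgeR adjusted p = 0.202). The female upstream share ranged over 54.7% to 71.3%, and 5 of 6 males had a share of 0. At both loci the upstream side reached the minimum mean of 10 counts through females.

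At 3 further loci the downstream side was higher in males. On chromosome 7, minus strand, the first start at 110137063 lay 18759 bases before the last of 5 downstream starts at 110118304. The upstream share was 0.810%, 2.15% and 6.18% (lowest, median, highest) in males and 32.7%, 58.4% and 66.4% in females. The upstream start fell by 2.53 on the log2 scale and the downstream side was higher by 2.95 ± 0.35, for a shift of -5.48 ± 0.57 with an edgeR adjusted p of 4.59e-08. With 38 counts in males and 355 in females, the upstream start reached the minimum mean of 10 counts through females. The poly(A) total again changed in the direction of the downstream side, which was the larger side in males. It had a median of 4716 CPM in males and 779 CPM in females, a log2 change of 2.64 ± 0.28 (edgeR adjusted p = 4.47e-06).

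On chromosome 3, minus strand, 6 starts between 129151221 and 129181747 spanned 30526 bases. The upstream share was 2.75%, 9.85% and 42.7% in males and 48.5%, 88.9% and 93.4% in females, so the highest male stayed just below the lowest female. The upstream level had medians of 15.7 CPM in males and 14.9 CPM in females, and the downstream side had 133 CPM in males and 3.37 CPM in females. The poly(A) site at 129146726 had 943 counts in males and 47 in females (log2 change 5.09 ± 1.04, edgeR adjusted p = 0.000998). This site reached the minimum mean of 10 counts through males. On chromosome 7, plus strand, a locus with its first start at 88469167 and its last 26340 bases on, 103 bases before the poly(A) site, had upstream shares of 11.5%, 14.2% and 35.2% in males and 67.5%, 75.2% and 92.0% in females. Its upstream side fell by 2.44 and its downstream side was higher by 1.49 ± 0.45 on the log2 scale. The WTSS-seq repeats of the female pool, at 22.1% and 6.68%, lay within or below the male range and below all 6 females at this locus.

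The sixth fall, on chromosome 9, minus strand, was carried by the first start at 640171. Its upstream share was 6.25%, 22.5% and 53.3% in males and 82.4%, 86.8% and 91.3% in females. The male shares rest on 31 upstream and 93 downstream counts in all. The upstream level was lower in males by a log2 change of -4.91 ± 0.54 and the downstream level fell by 0.78. The poly(A) total was lower in males as both sides were, with a median of 2.54 CPM in males and 68.5 CPM in females (log2 change -3.79 ± 0.78, edgeR adjusted p = 0.00104).

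The female pool gave a further reading of these loci in WTSS-seq. Of the 272 loci, 236 had 20 or more counts in both pool repeats. In 173 the mean pool share was nearer to the mean of the 6 females, and in 63 to that of the 6 males. No share over all loci is given for this count. Over the tested loci the pool repeats had mean upstream shares of 50.2% and 49.8%, against 58.5% in males and 59.4% in females. A lower pool share lies toward females where upstream use was higher in males, and toward males where it was lower. The count was not split by direction, so it is not read as agreement with either sex. Among the 12 leading loci, the pool lay with the males on chromosome 7 at 88469167, as given above. On chromosome 4 at 124239289 the repeats disagreed, at 16.6% and 69.6%. The chromosome 4 locus at 111354287, at 0.853% and 1.82%, lay within the female range.

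The second question was which side of a locus changed in level. Where both sides passed, they mostly changed in the same direction. Of 2356 upstream sides tested with edgeR's quasi-likelihood F test, 670 (28.4%, background 33.4%) were higher and 982 (41.7%, background 36.5%) lower in males. Of 1868 downstream sides, 584 (31.3%, same background) were higher and 686 (36.7%) lower. The median log2 change of all start features was -0.230, and with library totals in place of TMM scaling it was -0.916, when 494 upstream sides were higher and 1224 lower and 480 downstream sides were higher and 891 lower. The balance of the downstream sides turned without female 3, when 646 were higher and 596 lower, and without female 3 and the first column headed Male4, when 654 were higher and 629 lower. In 629 of the 1125 tested loci both sides passed (55.9%, background 58.1%). Both were higher in males in 280 (24.9%, background 26.0%) and lower in 301 (26.8%, background 28.5%).

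Opposite changes were rare. The upstream side was higher and the downstream side lower in males in 26 loci, and the reverse held in 22. These 48 loci were 4.27% of the 1125, against 3.62% of all loci tested. They include the chromosome 4 locus at 111354287 and the chromosome 7 locus at 110137063.

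A further 3 loci stood out by the product of their opposite changes. On chromosome 1, minus strand, the start at 182100140 had 125 counts in males and 0 of 4177 counts in females, which allows a female share of up to 0.0718%. In males its share was 0%, 12.2% and 34.9% (lowest, median, highest). The downstream side fell by 2.31 on the log2 scale, with medians of 25.9 CPM in males and 153 CPM in females. On chromosome 1, plus strand, the start at 45298870 had 118 counts in males and 2 in females, beside downstream medians of 15.1 CPM in males and 123 CPM in females. On chromosome 9, plus strand, 3 upstream starts from 9265574 on had 164 counts in males and 3 in females, and the downstream start at 9272680 had medians of 129 CPM in males and 446 CPM in females. At least 1 male had no upstream count at each of these 3 loci, so the male and female shares met at 0. Nearly all upstream counts there were male, so the upstream sides reached the minimum mean of 10 counts through males. The ranking by the product also rests on female upstream counts at or near 0.

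**Figure D3:**
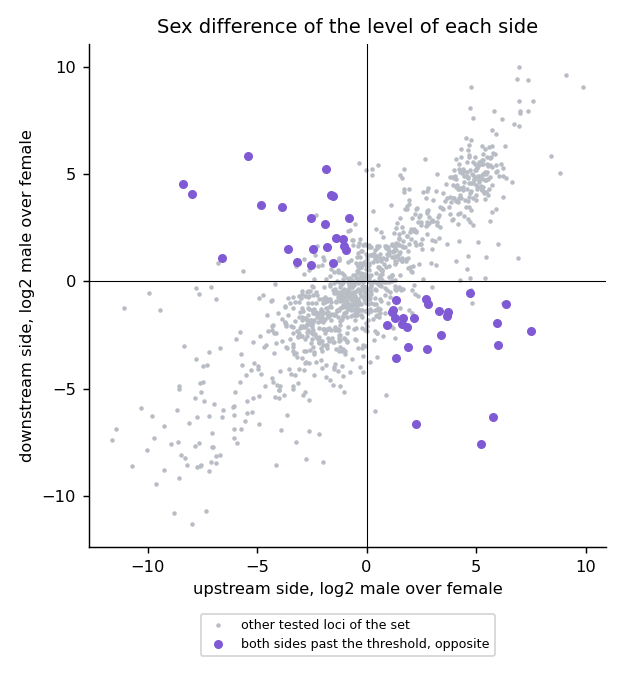
Log2 change of the level, male over female, of the upstream side (horizontal axis) and the downstream side (vertical axis) for the 1125 tested loci with far-apart starts, 1 point per locus. Most points run along the diagonal, and the 48 purple loci, whose sides both passed the edgeR test in opposite directions, lie in the upper left (22) and lower right (26).

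The 3′ ends were counted independently in WTTS-seq. Of 2271 loci of the set with enough poly(A) counts, 555 (24.4%, background 29.9%) had a higher and 733 (32.3%, background 26.2%) a lower poly(A) total in males. With library totals in place of TMM scaling these numbers were 361 and 1133, and the median log2 change of all poly(A) features was -1.34, against -0.223. Among the 630 loci tested at both ends, the poly(A) change had the sign of the upstream change in 510 (81.0%) and of the downstream change in 522 (82.9%). Of the 48 loci with opposite sides, 23 had a tested poly(A) total and 12 passed. The poly(A) total moved with the downstream side in 10 of them and with the upstream side in 2. In 3 of the 10 the strongest downstream start lay within 1000 bases of the first poly(A) site, and in 7 it lay farther away. By mean CPM over the animals, the upstream side was the larger in only 15 of the 48 loci. Whether the poly(A) total simply moved with the larger side was not tested. No background over all loci is given for these counts or for the shares of equal sign. They are therefore not read as particular to the set.

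Some loci differed strongly in level between the sexes while their start use did not pass the test. On chromosome 4, plus strand, 11 starts between 12547073 and 12553628 had an upstream share of 48.3%, 65.5% and 73.7% (lowest, median, highest) in males and 16%, 71.6% and 81.4% in females. The ranges overlapped, and the shift was -0.20 ± 0.66 (edgeR adjusted p = 0.861). Yet both sides were higher in males, by 5.26 ± 0.56 upstream and 5.46 ± 0.56 downstream on the log2 scale, as was the poly(A) total, with medians of 5646 CPM in males and 137 CPM in females. Chromosome 1, minus strand, first start 35384447, had sides higher in males by 4.45 ± 0.68 and 4.65 ± 0.42. Its shares were 27.2%, 40.5% and 50.7% in males and 2.86%, 51.0% and 57.6% in females, so the similar means hide a wide spread among females, 2 of which had 3 or fewer upstream counts. On chromosome 6, minus strand, first start 82278479, both sides were lower in males by log2 changes of -1.97 ± 0.35 and -1.89 ± 0.30, and the shift was -0.08 ± 0.44. These 3 loci were chosen as the most counted ones with a mean share near the middle in both sexes and a difference under 3 points.

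The most counted locus, on chromosome 5 with its first start at 61406537, was likewise higher in males on both sides (5.14 ± 0.47 and 5.56 ± 0.57 on the log2 scale), while its upstream share was 91.6% to 96.3% in males and 89.6% to 98.2% in females. The next, on chromosome 10 with its first start at 16524505, had 163356 downstream counts in males and 6084 in females, beside 70 and 0 upstream counts, and its upstream side was too low to test. On chromosome 1 the start at 8038634 carried 99.6% to 99.9% of the counts in males and 99.4% to 99.8% in females. So each of the 3 most counted loci used mainly 1 side in both sexes.

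The loci with the longest distances gave mixed results. The longest tested one, 57114 bases between its first start at 96562687 and its last on the minus strand of chromosome 7, had an upstream share of 43.6%, 56.3% and 71.1% in males and 18.8%, 37.3% and 41.3% in females. Its shift of 1.39 ± 0.46 passed narrowly (edgeR adjusted p = 0.0299) and was lost when male 1, male 5 or female 6 was left out (adjusted p = 0.0620, 0.0766 and 0.0572). A locus of 54370 bases on chromosome 1, first start 194550207, had shares of 35.7% to 74.5% in males and 45.8% to 82.1% in females, and did not pass (shift -0.67 ± 0.48). On chromosome 6, minus strand, 25 starts over 52953 bases from 2325123 on were higher in males by 5.13 ± 0.58 upstream and 5.50 ± 0.44 downstream. The 6 females had 13 upstream and 85 downstream counts. The upstream side there reached the minimum mean of 10 counts through males.

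The last comparison set CAGE against WTSS-seq of the same RNA pool. CAGE placed more of the counts on the upstream side, and it split loci almost entirely to 1 side or the other. Of 1689 loci with 20 or more counts in each of the 3 pool libraries, the CAGE share was 25 points or more above the mean of the WTSS-seq repeats in 667 (39.5%, background 36.8%) and 25 points or more below it in 38 (2.25%, background 2.62%). The repeats themselves differed by 25 points or more in 220 loci (13.0%, background 12.3%). Leaving out repeat 1, the shallower one, which lets more loci enter, gave 1139 of 2371 (48.0%) higher and 64 lower. In 659 of the loci with a CAGE difference, the difference also exceeded the gap between the repeats. With 1 CAGE library there is no test of these differences.

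The mean upstream share was 82.5% in CAGE, against 58.8% and 56.7% in the WTSS-seq repeats. Over the same 1689 loci the individual animals gave 65.4% ± 2.74 in males and 65.7% ± 4.72 in females (SD, n = 6 each). In CAGE 1390 loci had a share of 80% or more, 243 had 20% or less, and only 56 (3.32%) lay between. In WTSS-seq repeat 1 the middle range held 576 loci (34.1%), and in repeat 2 it held 702 (41.6%). The other loci with several starts had 7.60% in the middle range in CAGE, and 31.7% and 37.7% in the repeats.

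**Figure D4:**
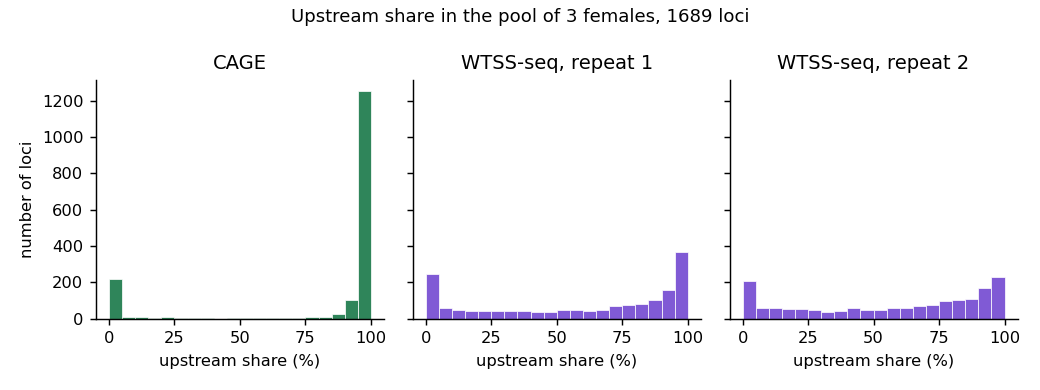
Number of loci (vertical axis) by upstream share in steps of 5 points (horizontal axis, %) in CAGE and in the 2 WTSS-seq repeats of the same pool of 3 females, for the 1689 loci with 20 or more counts in each library. The CAGE values pile up at both ends, with 1390 loci at 80% or more, whereas both repeats spread over the whole range.

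Summed over all 4221 loci, the upstream sides had similar totals in CAGE (176014 CPM) and in the WTSS-seq repeats (164364 and 160024 CPM). The downstream sides did not, with 42244 CPM in CAGE against 90293 and 94434 CPM in the repeats. CPM here are per total counts of the library, without TMM scaling. The downstream ratio was similar where the downstream start lay near the poly(A) site, with 14196 CPM in CAGE against 32464 and 36263 CPM. Where it lay farther away, CAGE had 28048 CPM against 57829 and 58172 CPM. Upstream totals in the near class were 83243 CPM in CAGE against 67309 and 62012 CPM. In the farther class they were 92772 CPM against 97055 and 98012 CPM. The other loci with several starts had 333638 CPM upstream in CAGE against 248982 and 214331 CPM. Downstream they had 66927 CPM against 141723 and 157636 CPM, so a lower downstream total in CAGE was not particular to the set.

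Sides without any CAGE count were uncommon. Of 1343 upstream sides with 20 or more counts in both WTSS-seq repeats, 68 (5.06%, exact 95% interval 3.95% to 6.38%) had 0 CAGE counts. Of 1157 downstream sides, 144 (12.4%, 10.6% to 14.5%) had none. In the other loci the shares were 7.47% (6.34% to 8.73%) upstream and 18.9% (17.1% to 20.8%) downstream. Intervals here and below are Clopper-Pearson intervals and cover counting error only.

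The distance between starts went with the CAGE share. Loci of 5000 to under 10000 bases had a mean share of 88.8% in CAGE and 63.9% in the pool WTSS-seq, those up to under 20000 bases 78.9% and 54.0%, and the longest class 70.6% and 46.8%. The share of loci past 25 points was 38.9% in the shortest and 40.1% in the longest class.

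In CAGE, loci whose use differed by sex held a lower share of upstream-dominated cases than the others, a difference that was not tested. The CAGE share was 80% or more in 72 of 106 (67.9%) loci with higher upstream use in males, in 91 of 115 (79.1%) with lower use in males, and in 487 of 538 (90.5%) tested loci that did not pass. It was 20% or less in 27, 17 and 31 of them. No share over all loci is given for these groups. The pool is female, and its WTSS-seq share averaged 45.1% in the loci with higher upstream use in males and 59.6% in those with lower use. In the tested loci that did not pass it averaged 52.2%, between these values, so the WTSS-seq repeats did not show the order seen in CAGE. Where CAGE had 20 or more counts on each side, 36 of 90 tested loci (40%) differed by sex, against 35.1% of all loci of that kind. These 90 loci were more deeply covered, with a median of 206 counts per animal against 114 over the 1125 tested.

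Some of the largest gains in CAGE share came from a first start that WTSS-seq hardly saw. On chromosome 2, minus strand, the start at 161110455 had all 172 CAGE counts of its locus (100%, interval 97.9% to 100%), against 0 of 100 and 0 of 109 counts in the repeats (upper bounds 3.62% and 3.33%). It also had no count in any of the 12 animals. In the libraries used here its counts thus came from CAGE alone, and the smallest total of a listed site was 25. Its listing may therefore have rested on CAGE, although how the authors listed sites was not given. The contrast at this locus cannot be taken as independent of how the site was listed. On chromosome 2, plus strand, the 2 upstream starts from 82382413 on had 97.9% of the CAGE counts (230 of 235 were upstream, interval 95.1% to 99.3%), against 0% and 1.95% in the repeats. A minus-strand locus of chromosome 2, first start 2414556, had 99.4% in CAGE against 1.36% and 4.01%, and a plus-strand locus of chromosome 3, first start 94744315, had 99.5% against 2.72% and 6.08%. At the last 2 the strongest downstream start lay 230 and 611 bases before the first poly(A) site.

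Losses were fewer. Of 579 loci with 100 or more counts in each library, 3 were lower in CAGE by 25 points or more, and these are described first, followed by the next in order. On chromosome 2, plus strand, 9 starts between 7801046 and 7806137 had an upstream share of 8.73% in CAGE (80 of 916 counts, interval 6.99% to 10.8%), against 70.4% and 68.0% in the repeats. By sex, the 6 males had 98.7% to 100% and the 6 females 26.3% to 93.2% upstream, with a shift of 6.20 ± 0.80 (edgeR adjusted p = 9.19e-07), on 7 male and 435 female downstream counts. The downstream side there reached the minimum mean of 10 counts through females. The chromosome 7 locus at 110137063, described above, had 1.19% upstream in CAGE (interval 0.697% to 1.91%), against 71.8% and 40.3% in the repeats. This CAGE value of a female pool lay within the range of the 6 males and below all 6 females in WTSS-seq. On chromosome 10, first start 31028512, CAGE had 0 of 261 counts upstream, but the repeats disagreed with each other, at 4.27% and 85.2%. The fourth, on chromosome 3 with its first start at 28388836, had 76.1% in CAGE against 98.8% and 98.7%. At lower counts, 2 loci described above were lower in CAGE as well. The chromosome 3 locus at 129181747 had 0 of 22 CAGE counts upstream (upper bound 15.4%), against 85.5% and 62.8% in the repeats, and the chromosome 1 locus at 194550207 had 0 of 159 (upper bound 2.29%), against 59.3% and 63.2%.

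The 3 loci chosen for mean shares near the middle in both sexes had nearly all CAGE counts upstream, while the pool WTSS-seq shares were lower than those means. The chromosome 4 locus at 12547073 had a CAGE share of 93.1% (interval 91.4% to 94.5%), against 19.2% and 30.7% in the repeats. The chromosome 6 locus at 82278479 had 95.9% against 35.2% and 43.4%, and the chromosome 1 locus at 35384447 had 97.5% against 7.89% and 11.8%. CAGE also placed nearly all counts on the upstream side at several loci with a sex difference. The 2 starts at 124239289 and 124230501 on chromosome 4 had 71 and 0 CAGE counts, and the chromosome 8 locus at 98742815 had 42 and 0. The chromosome 2 locus at 48788603 had 133 and 1. At each of these the CAGE share of the female pool lay above all 6 females in WTSS-seq. Other leading loci had CAGE counts on both sides. On chromosome 5 the starts at 108272828 and 108278109 had 127 and 28 CAGE counts. This share of 81.9% lay within the male range and above all 6 females and both repeats in WTSS-seq. On chromosome 2 the locus at 49237433 had 153 upstream and 451 downstream. On chromosome 7 the locus at 88469167 had 102 and 1104, and on chromosome 4 the locus at 113373572 had 49 and 176. The share of 21.8% at 113373572 lay above all 6 females and below all 6 males. The chromosome 4 locus at 111354287 had 5 and 281, a share within the female range.

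**Figure D5:**
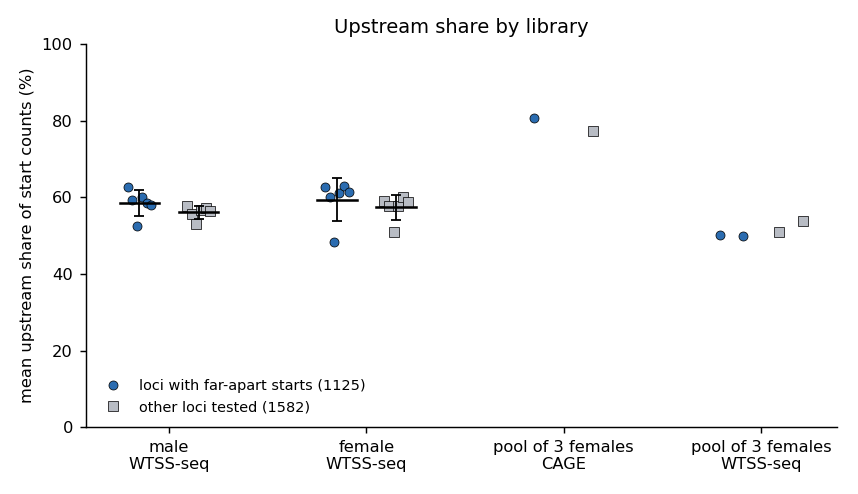
Mean upstream share (%) per library over the 1125 tested loci with far-apart starts (blue circles) and the 1582 other loci tested (grey squares), with the mean and SD of the 6 males and 6 females. Loci without a count in a library were left out of its mean. CAGE stands alone at 80.7% and 77.4%, and the lowest female library, at 48.3% and 50.9%, is female 3.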

How the data were processed

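The deposited tables hold raw counts for clusters of start sites (15 libraries) and of poly(A) sites (12 libraries), made by the authors, per the file headers and the values. Of 30 labelled libraries 27 were used, and HATT-seq and Iso-seq were left out. Columns that matched no labelled library numbered 0. The smallest total of a listed site was 25. Per the labels' protocols, WTSS-seq RNA was depleted of ribosomal RNA and WTTS-seq RNA enriched for poly(A) tails before PCR. PCR reads carry no molecular identifiers in the sources used here. The exact intervals of single loci and the share limits at 0 counts therefore cover counting error only. Those limits for a sex divide 3 counts by its pooled counts. The SD and SE values include the spread between animals. The aligner, the clustering of reads and the genome build were not given in the sources used here, so no gene is named and no sequence is shown. Positions were shifted to count from 1, and the sequence names gave the chromosome numbers.

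Counts were summed per side, and start sites in no locus entered as they were. edgeR 4.0.16 (R 4.3.3) fitted 6 males against 6 females with TMM scaling and a mean of 10 or more counts per side. diffSpliceDGE tested the ratio of the sides and the quasi-likelihood F test their levels. Benjamini-Hochberg adjustment covered all loci or features tested, at 0.05. A standard error is the log2 change divided by the square root of F. On simulated data diffSpliceDGE gave somewhat more small p-values without a difference than it should, so an edgeR fit within animals was added as an alternative. Other alternatives used limma 3.58.1, DESeq2 1.42.0 and exact permutation tests over 924 splits (smallest p 0.00216). Tables came from pandas 2.3.3 under Python 3.11.15, with scipy 1.17.1 and numpy 2.4.6.

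Named loci were picked by a rule: among loci past the sex test with 100 or more counts per animal and no overlap between the sexes, the 6 largest rises and 6 largest falls in share; the 3 most counted; the 3 longest tested; the 3 most counted with means of 30% to 70% and a difference under 3 points; the 4 largest rises and falls in CAGE at 100 or more counts; the loci at the distance limit; and the 4 with the largest opposite changes, of which 1 was already named. The loci, lists and tests were chosen with earlier results of these data known. Replicates are separate animals per the labels. Male columns without a clear number were used as replicates without one. Same-numbered males and females did not deviate together (correlations of -0.22 to 0.13), so the numbers were not taken as pairs.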

Additional observations from a re-analysis of the deposited data

Results flagged for a closer look

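Of 63 groups of 6 animals examined, 15 held 1 animal far from the other 5, measured by its gap to the nearest other value as a part of the group's range. For independent values from a normal distribution chance gives about 1 in 20. The shares here are bounded and often tied at a bound, and the same animals recur across groups. The 15 of 63 can therefore not be set against that rate.

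Female 3 accounted for 7 of the 15. Its mean upstream share over the tested loci was 48.3%, against a female median of 61.3%. Its share was 22.0% on chromosome 4 at 124239289 (median 39.4%), 27.6% on chromosome 6 at 82278479 (66.5%), 18.8% on chromosome 7 at 96562687 (37.3%) and 26.3% on chromosome 2 at 7801046 (85.2%). It was 89.6% on chromosome 5 at 61406537 (96.6%) and 99.4% on chromosome 1 at 8038634 (99.8%). In each case female 3 was the lowest female. This library also had 46.5% of its counts in 1 site, and the part of that site in these values was not tested.

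In the other females, the share of female 1 was 49.5% on chromosome 2 at 49237433, and that of female 2 was 48.5% on chromosome 3 at 129181747. Female 5 had 0.255% on chromosome 1 at 45298870 and 0.0863% on chromosome 9 at 9265574, where the other 5 females had 0.

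Among males, the first column headed Male4 had 4.41% on chromosome 6 at 45661592, where the others had 0, and the column headed Male3 had 6.18% on chromosome 7 at 110137063 (median 2.15%). The second column headed Male4 had 98.7% on chromosome 2 at 7801046, where the male median was 100%, and 75% at the locus just outside the distance limit on chromosome 2 at 91297128, which held 8 upstream and 24 downstream counts over all males.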

How the results depend on the processing

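The number of loci with a sex difference in upstream use (272) kept within 1.5 times under RLE size factors, limma, the exact permutation test, the midpoint split, a gap of 50000 bases and each animal left out. The fit within animals gave 233 of 1125, of which 214 were among the 272, and limma-voom gave 215. It moved under 6 settings, given as the total, then higher and lower in males. First against last start gave 113 of 387 (45 and 68), no filter 633 of 4153 (307 and 326), a mean of 50 counts per side 65 of 218 (40 and 25), a gap of 5000 bases 61 of 407 (22 and 39), a distance of 10000 bases 154 of 596 (79 and 75), and 20 or more CAGE counts on each side, chosen after seeing the data, 36 of 90 (17 and 19). At a gap of 5000 bases the share fell to 15.0%, with 349 of 1943 loci over all. Without female 3 and the first column headed Male4, chosen after seeing the data, 332 passed.

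With the replicate block over the numbered libraries, 565 downstream sides were higher and 484 lower in males, against 623 and 558 without the block, and 208 of 1271 loci passed, against 289 without the block. The numbers did not pair the animals, so a call lost there is not read as weaker.

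Without a filter 1061 upstream sides, and 1027 and 1123 downstream sides, were higher, and higher and lower, in males. Library totals gave 361 higher and 1133 lower poly(A) totals. At 100 or more counts CAGE was higher in 183 and lower in 3 of 579 loci, and sides at 0 CAGE counts were 2.00% upstream and 5.84% downstream. Leaving out 1 pool repeat gave 618 (of 1694) to 1139 (of 2371) loci with a higher and 38 to 64 with a lower CAGE share. By position, chosen after seeing the data, CAGE was higher in 289 and lower in 10 of 702 loci with a downstream start near the poly(A) site, and higher in 378 of 987 others. Fewer or more loci enter under each of these settings except library totals, which rescale the same loci. Beyond that the cause was not tested. Of 452 checks of the 25 named shifts, 446 kept their call, and the 6 lost ones were on chromosomes 4 (113373572), 7 (96562687) and 10 (31028512). Low counts limit the 3096 untested loci.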
